A study of Rattus norvegicus with 9 samples.

Results

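Granins and the enzymes that process prohormones were followed in the rat adrenal medulla, the catecholamine-secreting core of the adrenal gland, over 0, 1 and 6 sessions of immobilization stress. The set was defined by 10 gene symbols, Chga, Chgb, Scg2, Scg3, Scg5, Vgf, Pcsk1, Pcsk2, Cpe and Pam. All probe sets that the array annotation gives to exactly 1 of these symbols were taken, which found 11 probe sets of 9 genes among the 31099 probe sets of the array. Pcsk1, the prohormone convertase that acts early in the secretory pathway, had none under its symbol and was not analysed here. Pam had 3 probe sets, and each of the other 8 genes had 1.

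The adrenal medulla of adult rats of 280 to 320 g was measured on 9 Affymetrix oligonucleotide arrays, 3 per group. Control rats were not stressed, the rats labelled 1XIMO were immobilized once for 2 h, and those labelled 6XIMO were immobilized for 2 h on each of 6 days. Tissue was taken after the last session, both medullae of an animal were dissected, and no genetic modification, strain or sex is given in the sources used here. Some label fields name mouse and brain, while the organism field and the design text name rat and adrenal medulla. Nothing in the labels ties an array to a separate animal. The p-values therefore describe only how these 9 samples spread, which may be technical. Levels below are intensities in the deposited arbitrary unit, and changes are differences of log2(intensity + 16).

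Chromaffin cells of the medulla store catecholamines together with peptides in dense core granules. Granins are acidic proteins that aggregate with calcium and catecholamines as these granules form, and they are themselves cut into peptides that are secreted. Prohormone convertases cut precursors at pairs of basic residues, carboxypeptidase E removes the basic residues left at the new ends, and peptidylglycine alpha-amidating monooxygenase converts an exposed glycine into an amide. Several promoters of this family are known to hold a cAMP response element (CRE), the DNA element bound by CREB.

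Promoter sequences are shown for Vgf and Scg2, the 2 members with the full CRE, whose values after 1 session are set side by side below, and for Chgb, which holds none. RefSeq windows of the 250 bases before the gene start (build GRCr8) matched 8 of the 10 genes. The letters searched on both strands were TGACGTCA, the full CRE, and its shorter core TGACG or CGTCA, both of which lie inside the full CRE. The full CRE was found in 2 of the 8 windows, against 1.59% of 33469 rat windows of the same length, and a core in 7 of the 8, against 18.2% of all windows. The full CRE began 90 bases before the start of Vgf and 123 bases before the start of Scg2. In the other windows a single core began 69 bases before the start of Scg3, 7 before that of Scg5, 57 before Pcsk2, 173 before Cpe and 105 before Pam. A match describes letters only, since no binding was measured, and the lack of one says nothing of the factor. In the 3 windows below, capitals mark the full CRE. The windows lie at chr12:25277021-25277270, minus strand, for Vgf, at chr9:88256867-88257116, minus strand, for Scg2 and at chr3:140496462-140496711, plus strand, for Chgb.
Vgf: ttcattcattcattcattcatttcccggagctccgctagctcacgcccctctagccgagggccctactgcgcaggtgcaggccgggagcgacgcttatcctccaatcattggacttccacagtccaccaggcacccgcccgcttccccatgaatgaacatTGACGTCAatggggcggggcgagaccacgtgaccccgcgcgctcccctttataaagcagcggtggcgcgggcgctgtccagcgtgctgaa
Scg2: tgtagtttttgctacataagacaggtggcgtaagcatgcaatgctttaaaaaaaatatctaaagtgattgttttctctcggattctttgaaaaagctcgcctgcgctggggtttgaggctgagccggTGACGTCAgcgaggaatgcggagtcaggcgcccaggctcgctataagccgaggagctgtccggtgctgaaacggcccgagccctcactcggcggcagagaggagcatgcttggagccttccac
Chgb: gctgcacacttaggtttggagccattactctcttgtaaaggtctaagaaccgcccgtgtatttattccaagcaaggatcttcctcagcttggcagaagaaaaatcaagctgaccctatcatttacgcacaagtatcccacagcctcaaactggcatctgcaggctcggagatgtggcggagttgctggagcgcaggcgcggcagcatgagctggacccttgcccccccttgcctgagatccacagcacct

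The 6XIMO arrays stood apart from the other 6 in a measure of RNA quality, the actin 3′/5′ ratio, which rises when labelled RNA is incomplete towards its 5′ end. It reached 231 in 6XIMO replicate 1, 6.11 in replicate 2 and 8.87 in replicate 3. The Control arrays had at most 2.15 and the 1XIMO arrays at most 1.99. The GAPDH 3′/5′ ratio was 5.02, 1.79 and 1.87 in 6XIMO replicates 1, 2 and 3, and at most 1.41 in Control and 1.32 in 1XIMO. Across probe sets 6XIMO replicate 1 had correlations of 0.607 to 0.698 with the remaining arrays, which among themselves gave 0.858 to 0.974. The part of RNA quality in the 6XIMO results was not tested. The changes of the tested members against Control are given with and without replicate 1. Centring on chromaffin markers was run with all arrays only, and most single genes of the lists below are given with all arrays only. Both chromaffin and cortex markers were present. Over 9 of 10 listed chromaffin markers with a probe set, summed intensity was 738647 to 815540 in 6XIMO and 237157 to 418707 in 1XIMO, against 240300 to 348197 in Control. Over 10 of 12 cortex markers it was 1253461 to 2175084 in 6XIMO and 372054 to 889682 in 1XIMO, against 412986 to 598005 in Control, and no marker was listed at 0. In bulk tissue, fewer or more cells of a type and less or more RNA per cell cannot be told apart.

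The first comparison asks which of these transcripts changed after 1 session, and among them Vgf stood out. Vgf, a granin-like precursor first known as a transcript induced by nerve growth factor, had an intensity of 22768, 28009 and 25878 in the 1XIMO arrays, against 3488, 1550 and 636 in the Control arrays. Every 1XIMO array lay above every Control array, and the Control arrays spread far more widely than the stressed ones. The log2 level was 14.64 ± 0.15 in 1XIMO and 10.58 ± 1.21 in Control (SD, n = 3 each). Vgf rose by 4.06 ± 0.50 (SE) on the log2 scale, or 16.7-fold (adjusted p = 0.00136 by limma over 15716 probe sets, 95% confidence interval 2.94 to 5.18). Its place in the order of the 31042 non-control probe sets, which no scaling of the array as a whole can move, was 517 to 830 from the top in 1XIMO, against 7209 to 17744 in Control.

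**Figure D1:**
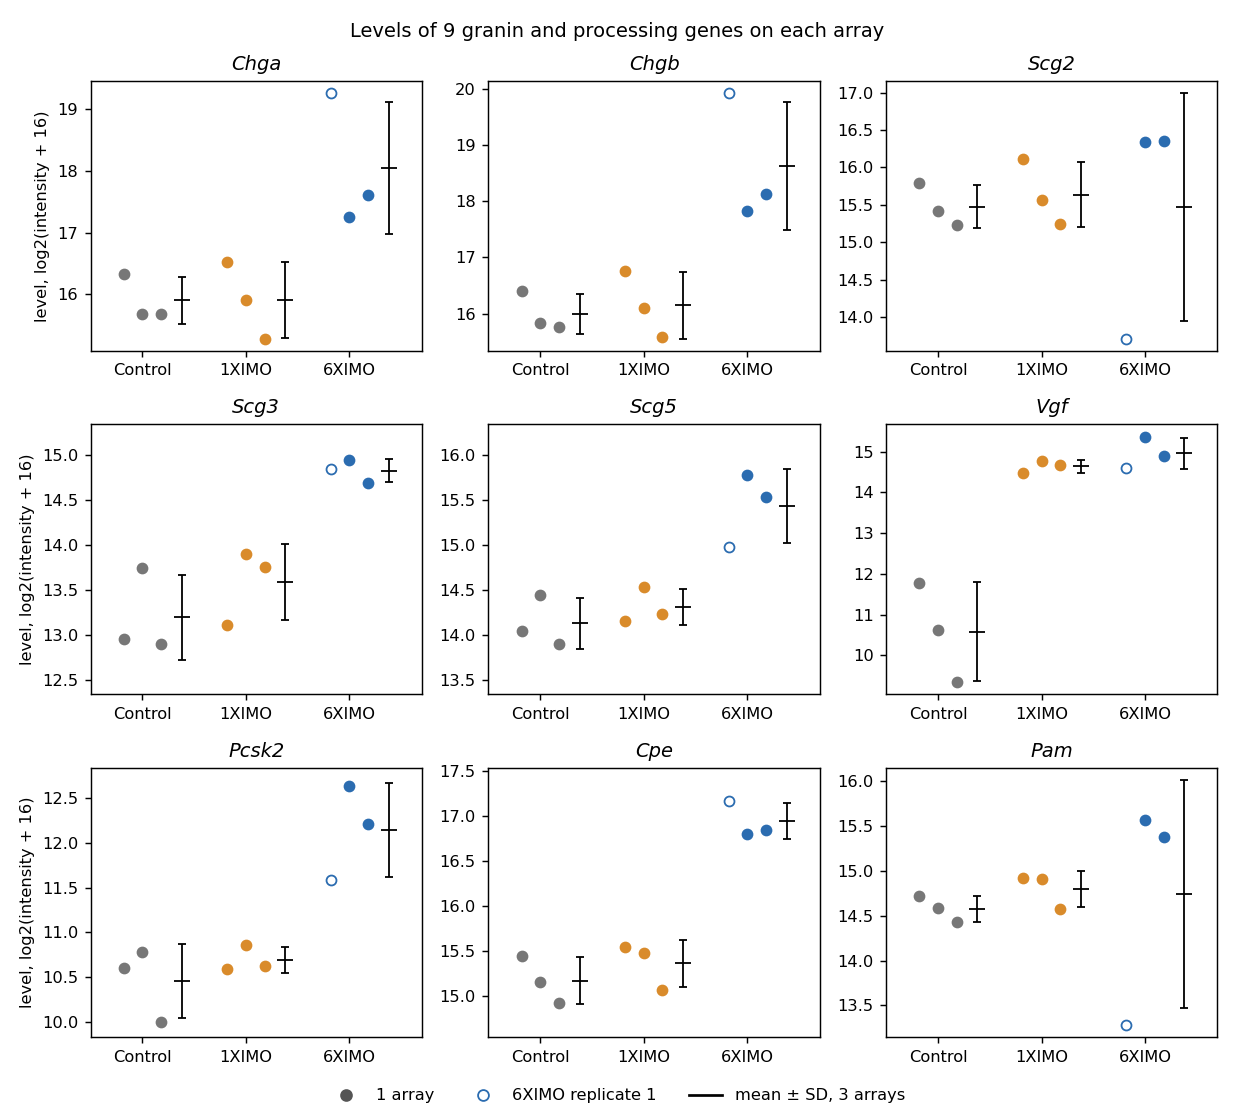
Level of each tested gene as log2(intensity + 16) on the y axis (each panel has its own range) for the 3 Control, 3 1XIMO and 3 6XIMO arrays, with the mean ± SD beside the points and 6XIMO replicate 1 as an open circle. Vgf sits near 14.64 in 1XIMO and 14.96 in 6XIMO, against 10.58 in Control, while Chga, Chgb, Scg3, Scg5, Pcsk2 and Cpe stand above Control in the 6XIMO arrays, and Scg2 and Pam are low in 6XIMO replicate 1.

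After 1 session 1 of the 9 tested members rose and 0 fell, where 3.65% of all 15716 tested probe sets rose and 3.64% fell. At an unadjusted p under 0.05 the limma counts were the same, 1 and 0. Vgf was also the 1 member whose 1XIMO arrays all lay above the Control arrays, as 13.2% of all tested probe sets did. With array weights, whose estimation stopped before it converged, Scg3 was called as well. The median log2 fold change of the 9 members was 0.19, against -0.12 over all tested probe sets. The other 8 members had log2 fold changes between 0.01 and 0.39, each with overlapping groups.

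Chga, chromogranin A, the precursor of catestatin and vasostatins, had 94370, 61659 and 39920 in 1XIMO, against 82730, 52819 and 52595 in Control. The groups overlapped fully, and 1XIMO replicate 1 and Control replicate 1 were the highest of their groups. The log2 fold change was 0.01 with a 95% interval of -1.21 to 1.22. Chgb, chromogranin B, had 111128, 70098 and 49013 in 1XIMO, against 86774, 58012 and 55634 in Control, with an interval of -1.11 to 1.41. Fitted without the 6XIMO arrays, the intervals were -0.72 to 0.73 for Chga and -0.54 to 0.84 for Chgb. Changes within these intervals are not excluded with 3 arrays per group.

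Scg2, secretogranin II, the precursor of secretoneurin, had 70691, 48294 and 38833 in 1XIMO, against 56702, 43619 and 38315 in Control. Its groups overlapped (log2 fold change 0.16 ± 0.63, adjusted p = 0.98 by limma). Fitted without the 6XIMO arrays, its change had an interval of -0.39 to 0.71. Its promoter window holds the same full CRE letters as that of Vgf, and the part of the CRE in either change was not tested. Pcsk2, the convertase that completes many cleavages in mature granules, had 1528, 1847 and 1567 in 1XIMO, against 1542, 1747 and 1008 in Control. Scg5, the chaperone that Pcsk2 needs to become active, had 18228, 23666 and 19154 in 1XIMO, against 16767, 22277 and 15188 in Control. Neither gene separated the groups. Without the 6XIMO arrays the intervals of the change were -0.32 to 0.78 for Pcsk2 and -0.22 to 0.59 for Scg5.

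Scg3, secretogranin III, which binds chromogranin A to granule membranes, had the highest change of these 8, a log2 fold change of 0.39 ± 0.29 (adjusted p = 0.571 by limma). It measured 8831, 15314 and 13879 in 1XIMO, against 7924, 13703 and 7635 in Control, so the lowest 1XIMO array lay below the highest Control array. Cpe, carboxypeptidase E, measured 47954, 45601 and 34335 in 1XIMO, against 44443, 36465 and 30947 in Control, and its groups overlapped. The bright probe set of Pam, the amidating enzyme, measured 30923, 30696 and 24309 in 1XIMO, against 26975, 24609 and 22092 in Control. Its groups overlapped too, with an interval of -0.12 to 0.55 without the 6XIMO arrays.

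The second comparison asks the same after 6 daily sessions. With all 9 arrays 7 of the 9 tested members rose and 0 fell, where 8.16% of all tested probe sets rose and 14.3% fell, and the limma counts at an unadjusted p under 0.05 were also 7 and 0. The same number, 7, lay above Control without overlap, where 13.8% of all tested probe sets did. Without 6XIMO replicate 1 all 9 rose, where 15.3% of all tested probe sets rose. The median log2 fold change of the members was 1.68 with all arrays and 1.62 without that replicate, against -0.28 and -0.30 over all tested probe sets. With quantile normalization, which gives all arrays the same distribution of values, the members' median was 0.58 with all arrays and 0.48 without replicate 1. Among the brightest 10% of tested probe sets 24.8% rose with all arrays and 57.8% without replicate 1, with medians of 0.26 and 0.56. Their median was -0.125 with quantile normalization and -0.36 with arrays centred on chromaffin markers, as described below. With quantile normalization 6 of 9 members rose, where 7.93% of all tested probe sets and 13.5% of the brightest 10% rose. The actin 3′/5′ ratios and the cortex marker sums of the 6XIMO arrays, given above, moved with these results.

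Vgf had 24848, 42325 and 30629 in the 6XIMO arrays, against 3488, 1550 and 636 in Control. No 6XIMO array overlapped the Control arrays, and the log2 fold change was 4.38 ± 0.50 (SE, adjusted p = 0.000757 by limma, 20.8-fold). It was 4.19 with quantile normalization, 4.56 without 6XIMO replicate 1 and 3.77 with arrays centred on the chromaffin markers, and Vgf was called in each of these. Of the 9 members it had the largest change in both comparisons with Control.

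Chgb had 989259, 231933 and 287083 in 6XIMO, against 86774, 58012 and 55634 in Control. Chga had 628429, 157202 and 200638, against 82730, 52819 and 52595. For both granins every 6XIMO array lay above every Control array, and 6XIMO replicate 1 lay far above the other 2. Chgb rose by 2.63 ± 0.56 on the log2 scale (adjusted p = 0.0108 by limma) and Chga by 2.14 ± 0.54 (adjusted p = 0.0209 by limma). Without replicate 1 the changes were 1.98 and 1.54, both called. With quantile normalization Chgb was 0.50 above Control and called, while Chga was 0.25 above with overlapping groups (adjusted p = 0.276 by limma). The position of Chgb among all probe sets of an array was 1 to 2 in 6XIMO, against 14 to 43 in Control, and that of Chga was 8 to 22 in 6XIMO, against 17 to 57 in Control.

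**Figure D2:**
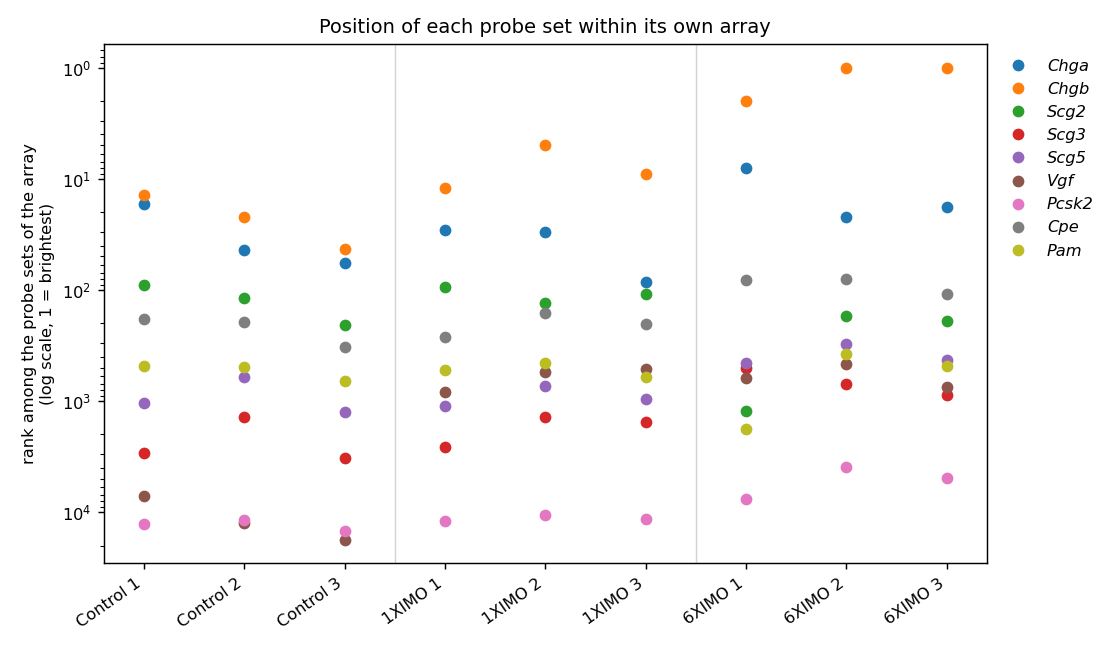
Rank of each tested probe set among the 31042 non-control probe sets of its own array (log axis, 1 is the brightest), for the 9 arrays in order of sessions. Vgf ranks between 468 and 747 in 6XIMO and 517 and 830 in 1XIMO, against 7209 to 17744 in Control, Pcsk2 ranks between 3960 and 7626 in 6XIMO, against 11725 to 14856 in Control, and Scg2 ranks at 1226 in 6XIMO replicate 1.

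Scg3 had 29415, 31652 and 26445 in 6XIMO, against 7924, 13703 and 7635 in Control. Here 6XIMO replicate 1 lay between the other 2, and the groups did not overlap. Scg3 rose by 1.63 ± 0.29 (adjusted p = 0.00497 by limma), with 1.62 without replicate 1 and 1.37 with quantile normalization. Scg2, by contrast, had 13444, 82834 and 83993 in 6XIMO, against 56702, 43619 and 38315 in Control, so 6XIMO replicate 1 was below every other array and replicates 2 and 3 were above all Control arrays. Its log2 fold change was -0.01 ± 0.63 with all arrays, and 0.87 ± 0.25 without replicate 1 (adjusted p = 0.0172 by limma). Quantile normalization gave -0.75 with all arrays and -0.16 without replicate 1, neither of them called, so the sign of the Scg2 change depends on the setting.

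Pcsk2 had 3050, 6326 and 4702 in 6XIMO, against 1542, 1747 and 1008 in Control. Scg5 had 32119, 56170 and 47358, against 16767, 22277 and 15188. For the convertase and its chaperone all 6XIMO arrays lay above all Control arrays, with replicate 1 the lowest of the 3. Pcsk2 rose by 1.68 ± 0.31 (adjusted p = 0.00619 by limma, 3.19-fold), by 1.95 without replicate 1 and by 1.79 with quantile normalization. Pcsk2 was the dimmest of the 9 tested members in 1XIMO and in 6XIMO. Scg5 rose by 1.30 ± 0.27 (adjusted p = 0.009 by limma), by 1.53 without replicate 1 and by 0.80 with quantile normalization.

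Cpe had 147575, 114294 and 118168 in 6XIMO, against 44443, 36465 and 30947 in Control. The groups lay far apart, and Cpe rose by 1.77 ± 0.27 (adjusted p = 0.00254 by limma, 3.41-fold). The rise was 1.66 without replicate 1 and 0.58 with quantile normalization, and it was called in both. Pam, in its bright probe set, had 9935, 48705 and 42629 in 6XIMO, against 26975, 24609 and 22092 in Control. As with Scg2, replicate 1 was the lowest of all 9 arrays and replicates 2 and 3 were the highest. The log2 fold change was 0.16 ± 0.51 with all arrays and 0.90 ± 0.16 without replicate 1 (adjusted p = 0.00165 by limma). It was -0.28 with quantile normalization of all arrays and 0.19 with quantile normalization without replicate 1, neither of them called.

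The other 2 Pam probe sets were dim and were left out by the filter on the dimmest 30% of probe sets, so that 9 of 11 passed. One measured 166, 189 and 242 in 6XIMO and 398, 264 and 491 in 1XIMO, against 582, 297 and 277 in Control. The other measured 1314, 117 and 266 in 6XIMO and 63.4, 89.5 and 115 in 1XIMO, against 90.6, 17.98 and 19.3 in Control. The first was lowest in 6XIMO and the second highest there, in both cases without overlap with Control. With no filter on dim probe sets their log2 fold changes for 6XIMO against Control were -0.84 ± 0.54 (adjusted p = 0.323 by limma) and 2.87 ± 0.89 (adjusted p = 0.0528 by limma), so neither was called. The filter removed probe sets with a mean log2 level up to 8.51, and the dimmest member that passed, Pcsk2, had mean levels of 12.14 in 6XIMO and 10.69 in 1XIMO, against 10.46 in Control.

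**Figure D3:**
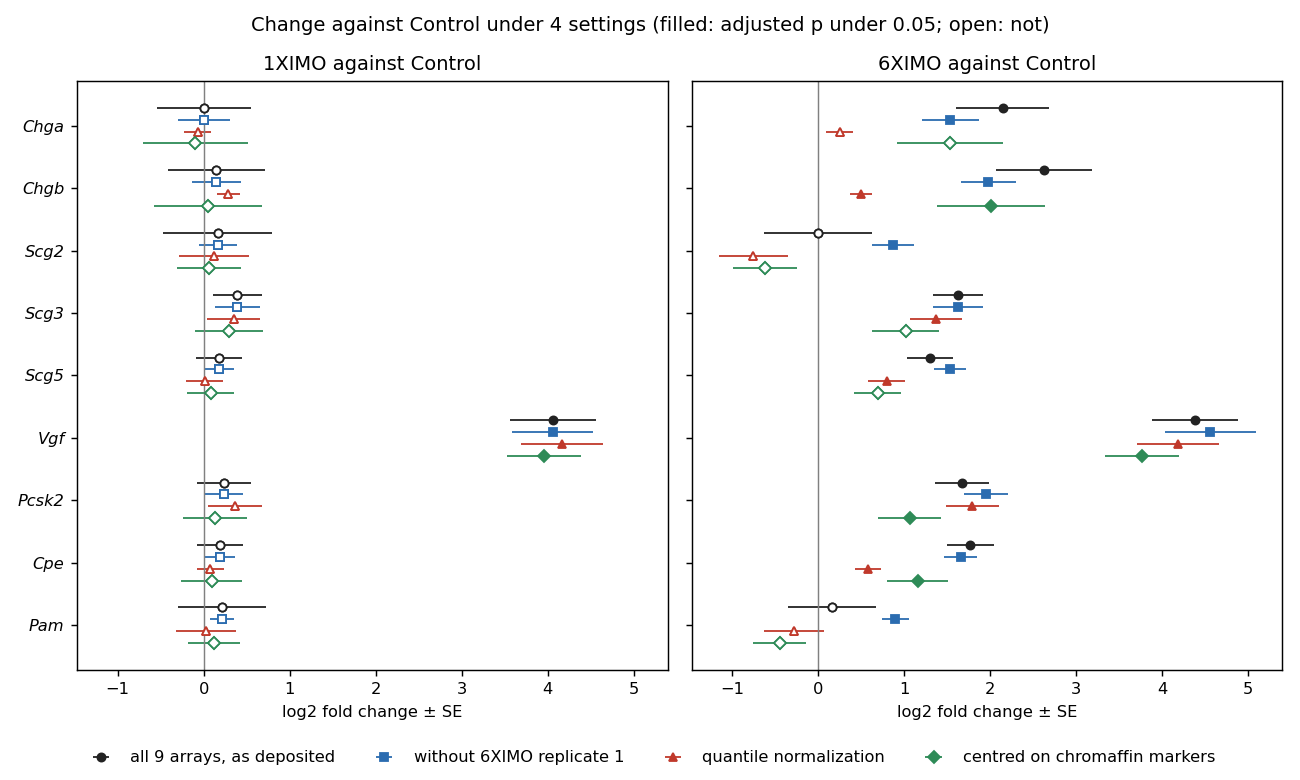
Log2 fold change ± SE against Control for the 9 tested genes after 1 session (left) and 6 sessions (right) under 4 settings, filled where the adjusted p was under 0.05 and open where it was not. On the left Vgf alone is filled (4.06 with all arrays), and on the right Chgb and Chga move most between settings (Chgb from 0.50 to 2.63, Chga from 0.25 to 2.14), while Scg2 and Pam lie on both sides of 0.

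Because the summed intensities of the chromaffin and cortex markers were higher in 6XIMO, each array was also centred on the mean log2 level of 9 chromaffin markers, among them Th, Dbh and Pnmt, which make catecholamines. That mean was 14.31 to 15.49 in 6XIMO, against 14.15 to 14.62 in Control, so the groups overlapped on it. With this setting, chosen after seeing the data, 4 of 9 members rose in 6XIMO and 0 fell against Control, where 1.83% of all tested probe sets rose. They were Vgf (3.77 ± 0.43), Chgb (2.01 ± 0.63), Cpe (1.16 ± 0.35) and Pcsk2 (1.06 ± 0.37). All tested probe sets had a median of -0.89 on that scale. Centring each array on its median gave 4 rises with all arrays, of Vgf, Chgb, Chga and Cpe, where 4.01% of all tested probe sets rose, and 9 without 6XIMO replicate 1, where 30.8% did. Of the chromaffin markers 3 of 9, Dbh, Pnmt and Slc18a2, rose after 6 sessions and 0 fell (median 0.86). The reference of that centring thus holds genes that themselves changed. Of the 6 markers that were not called, 4 had negative changes, from -0.15 for Ddc to -1.12 for Slc18a1. Of the cortex markers 7 of 10 rose and 0 fell (median 1.72), where 8.16% of all tested probe sets rose and 14.3% fell. The rises were 5 of 9 and 8 of 10 without 6XIMO replicate 1, where 15.3% of all tested probe sets rose. With quantile normalization 1 of the 9 and 3 of the 10 rose, with medians of -0.13 and -0.03.

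The third comparison sets 6 sessions against 1. Here 6 of 9 members were higher in 6XIMO and 0 lower by limma, also at an unadjusted p under 0.05, where 4.13% of all tested probe sets were higher and 5.2% lower. The members' median was 1.24, against -0.14 over all tested probe sets, and it was 0.32 with quantile normalization and 0.20 with that normalization without 6XIMO replicate 1. Chgb was higher by 2.48 ± 0.56 (adjusted p = 0.0287 by limma), Chga by 2.14 ± 0.54 (adjusted p = 0.0394 by limma), and Cpe by 1.58 ± 0.27 (adjusted p = 0.0136 by limma). Pcsk2 was higher by 1.44 ± 0.31, Scg3 by 1.24 ± 0.29 and Scg5 by 1.12 ± 0.27. Without 6XIMO replicate 1 the differences were 1.83 for Chgb, 1.53 for Chga, 1.46 for Cpe, 1.72 for Pcsk2, 1.23 for Scg3 and 1.35 for Scg5, all called. Each of these 6 had no overlap between the 6XIMO and the 1XIMO arrays, and 14.1% of all tested probe sets were higher in that way. Vgf had a log2 difference of 0.32 ± 0.50 (adjusted p = 0.712 by limma), with overlapping arrays. Scg2 and Pam had -0.17 ± 0.63 and -0.05 ± 0.51, and without replicate 1 Scg2 had 0.71 (adjusted p = 0.0545 by limma) and Pam 0.68 (adjusted p = 0.0117 by limma). These calls changed with single arrays. Where no share of all tested probe sets stands beside a count below, that share is not given here. Such a count cannot be told apart from a change over all probe sets. The number called was 7 without 6XIMO replicate 1 (where 12% of all tested probe sets were higher), 4 without Control replicate 1, 3 without Control replicate 2, 2 without Control replicate 3, 1 without 1XIMO replicate 1, 0 without 1XIMO replicate 2 or 3, 3 without 6XIMO replicate 2 and 2 without 6XIMO replicate 3. With quantile normalization Pcsk2 alone was called (1.43, adjusted p = 0.0444 by limma), where 2.32% of all tested probe sets were higher. A limma fit of the 1XIMO and 6XIMO arrays alone called 0, with 6 at an unadjusted p under 0.05.

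Differences between 2 genes of the same array do not depend on a scaling of the array as a whole. The difference Chga minus Chgb was -0.24, -0.18 and -0.30 in 1XIMO (in units of log2), against -0.07, -0.14 and -0.08 in Control. In 6XIMO it was -0.65, -0.56 and -0.52 against the same Control values. The 3 groups did not overlap at all, and Chgb gained on Chga with 1 session and further with 6. The change of the difference was -0.14 for 1XIMO and -0.48 for 6XIMO against Control, and -0.34 for 6XIMO against 1XIMO. Each had a two-sided exact permutation p of 0.1, the smallest that 3 against 3 arrays can give. The difference Scg5 minus Pcsk2 was 3.39, 3.15 and 3.33 in 6XIMO, against 3.43, 3.66 and 3.89 in Control. Pcsk2 thus gained on its chaperone by 0.37 without overlap (exact permutation p = 0.1), and the 1XIMO arrays, at 3.56 to 3.67, overlapped those of Control (exact permutation p = 0.8). Without 6XIMO replicate 1 the 6XIMO changes against Control were -0.44 for Chga minus Chgb (exact permutation p = 0.1) and -0.42 for Scg5 minus Pcsk2 (exact permutation p = 0.2). Quantile normalization, which is no such scaling, moved both differences. The Chga minus Chgb change was then -0.25 for 6XIMO against Control (exact permutation p = 0.2), so that those groups no longer separated, and -0.36 for 1XIMO against Control (exact permutation p = 0.1). It turned to 0.11 for 6XIMO against 1XIMO (exact permutation p = 0.6). The Scg5 minus Pcsk2 change was -0.99 for 6XIMO against Control and -0.35 for 1XIMO against Control with that normalization (exact permutation p = 0.1 for each). These differences describe unequal change of the measured levels of 2 probe sets and say nothing of which of them changed. An effect of RNA quality that differs between probe sets would not cancel within an array. The actin 3′/5′ ratio was 6.11 to 231 in 6XIMO, and its part in these differences was not tested. No difference of Pcsk1 and Pcsk2 was computed.

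**Figure D4:**
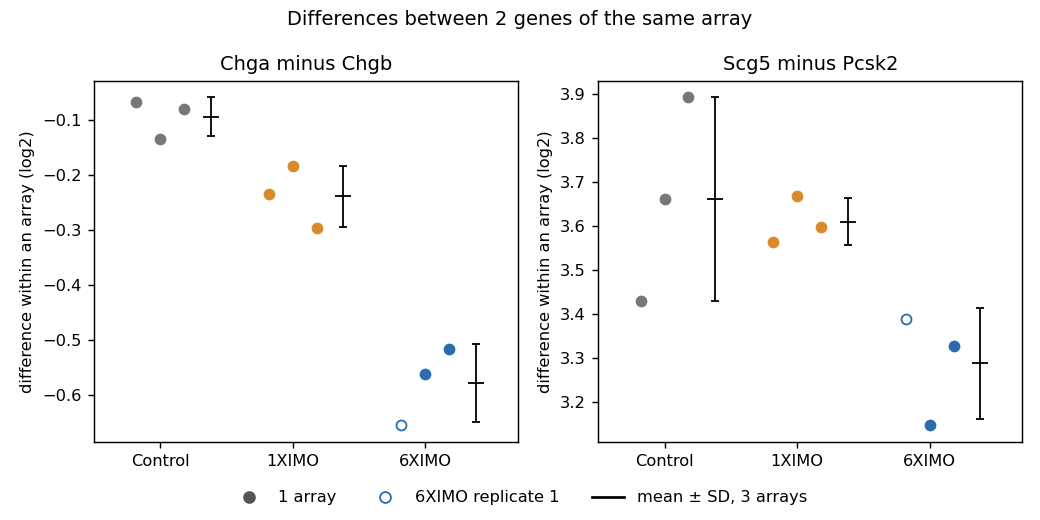
Difference of log2 levels between 2 genes of the same array for Chga minus Chgb (left) and Scg5 minus Pcsk2 (right), for the 3 Control, 3 1XIMO and 3 6XIMO arrays, with mean ± SD beside the points and 6XIMO replicate 1 open. The Chga minus Chgb difference averages -0.10 in Control, -0.24 in 1XIMO and -0.58 in 6XIMO with no overlap.

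Other genes of the pathway were read from lists chosen for this tissue, with earlier results of these data known. The shares of all tested probe sets beside their counts are therefore descriptive and no test of the lists. Over all tested probe sets 3.65% rose and 3.64% fell after 1 session, and 8.16% rose and 14.3% fell after 6 sessions. Between 6 sessions and 1, 4.13% were higher and 5.2% lower, and 12% were higher without 6XIMO replicate 1. Of 24 further peptide-processing genes, among them Furin and other convertases and the signal peptidase, 2 rose after 1 session and 0 fell (median -0.10). Pcsk6, a convertase of the constitutive pathway, measured 1487, 1512 and 1016 in 1XIMO, against 373, 284 and 336 in Control, and rose by 1.95 ± 0.34 (adjusted p = 0.00934 by limma). Nrdc, a peptidase that cuts at pairs of basic residues, rose by 0.73 ± 0.19. After 6 sessions 1 of the 24 rose, Pcsk6 by 1.39 ± 0.34, and 0 fell (median -0.14), and with quantile normalization the Pcsk6 call was lost at a change of 1.36 ± 0.48 (adjusted p = 0.0873 by limma). There were 3 rises and 2 falls without 6XIMO replicate 1, where 15.3% of all tested probe sets rose. Between 6 sessions and 1 the list had 0 calls with all arrays, and 2 higher and 2 lower without that replicate.

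Of 22 tested genes of granule membrane and assembly, 1 rose after 1 session and 0 fell (median 0.07). With the spread estimated without 6XIMO replicate 1, which leaves the changes after 1 session as they are, 3 rose and 1 fell, where 9.01% of all tested probe sets rose and 15.5% fell. With all arrays the rise was that of Ptprn, a granule membrane protein related to tyrosine phosphatases, with 21956, 28701 and 24895 in 1XIMO, against 11555, 16227 and 10243 in Control (log2 fold change 1.01 ± 0.26, adjusted p = 0.0471 by limma). After 6 sessions 2 rose and 2 fell (median -0.37, and 0.01 without 6XIMO replicate 1). Ptprn rose by 1.53 ± 0.26 and Slc18a2, a vesicular monoamine transporter, by 2.30 ± 0.58. Without 6XIMO replicate 1 these rises were 1.74 and 3.07. Cadps, which primes dense core granules for release, measured 2944, 2524 and 1861 in 6XIMO, against 5626, 5741 and 3728 in Control, and fell by 1.04 on the log2 scale. The other fall was that of Sytl4, a Rab effector on secretory granules (-2.74 ± 0.74), named after its value was seen, and not called with quantile normalization at -2.69 ± 1.06 (adjusted p = 0.115 by limma). The list had 4 rises and 5 falls without 6XIMO replicate 1, where 15.3% of all tested probe sets rose. The share of all that fell there is not given here. Cadps was also the 1 gene of this list that was lower in 6XIMO than in 1XIMO, with 0 higher, and its call there (-1.13 ± 0.25) was lost with quantile normalization at -0.98 ± 0.24 (adjusted p = 0.0546 by limma). Without replicate 1 there were 4 higher and 3 lower.

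The precursors that these enzymes cut form the last list, also chosen with earlier results of these data known. Of 13 tested precursors, from a list of 18, 4 rose after 1 session and 0 fell (median 1.16), and 10 rose and 1 fell after 6 sessions (median 1.74). With the spread estimated without 6XIMO replicate 1, 8 rose and 0 fell after 1 session, and 10 and 2 after 6 sessions. Of all tested probe sets 9.01% and 15.3% rose in these 2 comparisons. The rises after 6 sessions were 4 with arrays centred on their medians and 6 with arrays centred on the chromaffin markers. In these settings 4.01% and 1.83% of all tested probe sets rose. Calca, the gene of calcitonin gene-related peptide, rose by 5.07 ± 0.35 after 1 session, Nts, neurotensin, by 4.81 ± 0.57 and Ucn2, urocortin 2, by 4.37 ± 0.33. After 6 sessions Nmu, neuromedin U, rose by 6.43 ± 0.53. The fall was that of Adm, adrenomedullin (-1.33 ± 0.42), named after its value was seen. It was -0.76 ± 0.20 and called without 6XIMO replicate 1, and -1.58 ± 0.60 and not called with quantile normalization (adjusted p = 0.107 by limma). Between 6 sessions and 1, 3 precursors were higher and 0 lower, Nmu by 3.08 ± 0.53, Npy by 1.37 ± 0.35 and Pdyn by 0.96 ± 0.23, and the call of Npy was lost with quantile normalization at 0.41 ± 0.31 (adjusted p = 0.395 by limma). Without replicate 1 there were 5 higher and 1 lower.

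The genes whose levels over the 9 arrays were most like that of Vgf, among 11286 others, were Nts, Lama5, Nrip3, Calca and Synm, with Pearson correlations of 0.987 to 0.963. Those most like Chgb were Dbh, Hsp90ab1, Chga, Rpl41 and Rps29, at 0.998 to 0.995. These are descriptions over 9 arrays that fall into 3 groups and share the scale of each array, so that separation of the groups alone can give a high value. Without 6XIMO replicate 1 the correlations of these genes were 0.962 to 0.993 with Vgf and 0.988 to 0.998 with Chgb. Markers of other cells were read by the same limma test for 6 sessions against Control. Of all tested probe sets 8.16% rose and 14.3% fell, and 15.3% rose without 6XIMO replicate 1. There were 0 rises and 1 fall of 6 tested markers of Schwann cells and glia, 0 and 1 of 5 endothelial markers, 0 and 1 of 6 leukocyte markers and 0 and 0 of 5 neuronal markers. Without 6XIMO replicate 1 the rises and falls were 2 and 1, 1 and 1, 1 and 2, and 1 and 0 in the same order.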

How the data were processed

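The deposited values are intensities on a linear scale, 1 for each probe set of each of the 9 arrays. Labelling was done by the manufacturer, per the labels' protocols. How the authors summarised probes, corrected background and scaled arrays is not given in the sources used here. All arrays had trimmed means of 2501, so each had been scaled as a whole. Arrays were grouped by their titles.

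Values were turned into log2(intensity + 16). Of 31099 probe sets 57 are array controls, 20826 carry 1 gene symbol, 436 several and 9780 none. Leaving out controls, those without exactly 1 symbol and the dimmest 30% kept 15716 probe sets of 11287 genes. The fit was made in R 4.3.3 with lmFit and trended eBayes of limma 3.58.1, two-sided, on all 9 arrays without covariates. Calls used a Benjamini-Hochberg adjusted p under 0.05 over all 15716. The fit was also run on simulated data, but the outcome is not given here and carries no weight for the calls. How the fit behaves with arrays of uneven RNA quality is not shown here. Precision is limited by having 3 arrays per group.

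Other settings were filters, normalizations, pseudocounts, thresholds, array weights, 1 probe set per gene, a replicate block, the 2 groups alone and leaving out arrays. Centring on chromaffin markers, and on the median without 6XIMO replicate 1, were chosen after seeing the data. The members and lists were chosen with earlier results of these data known. Beside the members, the text names up to 3 called genes per list and comparison with the smallest adjusted p, and the 5 genes most correlated with Vgf and with Chgb.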

Additional observations from a re-analysis of the deposited data

Results flagged for a closer look

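For 6 genes the responses to 6 sessions and to 1 session differed by the limma test of 6XIMO against 1XIMO. By that test 4.13% of all tested probe sets were higher in 6XIMO, and 14.1% were higher there without overlap. The log2 differences were 2.48 for Chgb, 2.14 for Chga, 1.58 for Cpe, 1.44 for Pcsk2, 1.24 for Scg3 and 1.12 for Scg5, each higher in 3 of 3 6XIMO arrays than in every 1XIMO array. With quantile normalization the same differences were 0.21, 0.32, 0.50, 1.43, 1.02 and 0.79. Of these only that of Pcsk2 was called, where 2.32% of all tested probe sets were higher. Without 1XIMO replicate 2 or 3, and with the 2 groups fitted alone, 0 members were called. The actin 3′/5′ ratio was 6.11 to 231 in 6XIMO and 1.57 to 1.99 in 1XIMO, and its part in the differences was not tested.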

How the results depend on the processing

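The count of members called after 1 session was 1 in every setting tried except array weights, with 2. After 6 sessions it was 7, 5 to 9 with 1 array left out, and 5 to 9 in all settings except median centring and centring on the chromaffin markers, with 4 each. Between 6 sessions and 1 it was 6 with all arrays and 0 to 7 with 1 array left out. It was 1 with quantile normalization, 2 with median centring, 2 with quantile normalization without 6XIMO replicate 1, and 0 with the 2 groups alone, with an adjusted p under 0.01, and with chromaffin centring. At an unadjusted p under 0.05 those 3 limma counts of 0 were 6, 6 and 5. In the main fit 3.65%, 8.16% and 4.13% of all tested probe sets were higher in the 3 comparisons. After 6 sessions the share was 7.93% with quantile normalization, 4.01% with median centring and 1.83% with chromaffin centring. It was 30.8% with median centring without 6XIMO replicate 1. Not every setting has its share given here, so a shift of these counts cannot be read as particular to the members. Same-numbered arrays of different groups had deviations from their group means that correlated at 0.042 to 0.577, and differently numbered ones at -0.508 to 0.361. Whether the replicate numbers mark a shared batch was not tested, and the main fit did not use them. The replicate block left the counts at 1, 7 and 6.

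Of 594 recomputed changes of single members, 490 kept direction and side of the threshold. In 71 the call was lost, and in 4 it was gained with the sign kept. The other 29 changed sign, and some of these also gained the call, as that of Scg2 after 6 sessions without 6XIMO replicate 1. After 1 session the sign of the Chga change turned to -0.0711 with quantile normalization, -0.058 with that normalization without 6XIMO replicate 1, -0.0182 with array weights and -0.0947 with chromaffin centring. With 1 array left out this change ran from -0.304 to 0.3165, that of Chgb from -0.1586 to 0.4318 and that of Scg2 from -0.0742 to 0.3578. After 6 sessions Scg2 turned to 0.17 with median centring, 0.97 with array weights and 1.48 with median centring without 6XIMO replicate 1, and ran from -0.45 to 0.87 with 1 array left out. Pam turned to -0.28 with quantile normalization and -0.45 with chromaffin centring, and ran from -0.25 to 0.8961 with 1 array left out. Between 6 sessions and 1, Scg2 turned to 0.83 with array weights and 1.19 with median centring without 6XIMO replicate 1, and ran from -0.6111 to 0.71 with 1 array left out. Vgf turned to -0.19 with chromaffin centring. Pam turned to 0.16 with quantile normalization without 6XIMO replicate 1, 0.59 with array weights and 1.15 with median centring without that replicate, and ran from -0.4676 to 0.68 with 1 array left out. The Chga minus Chgb change between 6 sessions and 1 was 0.11 with quantile normalization. The Scg5 minus Pcsk2 change after 1 session ran from -0.1665 to 0.0648 with 1 array left out. Array weights stopped before they converged. The causes were not tested. The Pcsk1 minus Pcsk2 difference was not run, since Pcsk1 had no probe set under its symbol.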
